A study of Mus musculus with 12 samples.

Results

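The G1 cyclins, their kinases and the inhibitors of these kinases were followed through differentiation of mouse myeloid progenitors. The 10 genes are a named set, Ccnd2, Ccnd3, Ccne1, Ccne2, Cdk4, Cdk6, Cdkn1a, Cdkn1b, Cdkn2c and Cdkn2d, out of 23309 genes listed in the deposited RNA-seq values, and all 10 were among the 11516 genes that passed the filter on low values. The cells were c-Kit positive bone marrow progenitors immortalized by a retrovirus carrying HoxB8 fused to the estrogen receptor, which holds cells immature while estradiol (E2) is present, and all were grown in IL-3. Wild-type (WT) progenitors and HMGN1-OE progenitors, from transgenic mice that carry human HMGN1, were each sampled in E2 (0 h) and at 36 and 96 h after its withdrawal. Each of the 6 groups held 2 libraries, 12 in all, described as biological duplicates. The p-values measure only a spread between libraries, and the age and strain of the mice are not used here. As deposited, limma took that spread from a trend over all tested genes, not from the gene's own duplicate libraries.

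In the G1 phase, D-type cyclins bind CDK4 or CDK6 and phosphorylate the retinoblastoma protein, which releases E2F transcription factors. E-type cyclins then activate CDK2 for entry into S phase. INK4 inhibitors such as p18INK4c and p19INK4d bind CDK4 and CDK6, and the Cip/Kip inhibitors p21 and p27 act mainly on cyclin E-CDK2 complexes. Cells of the granulocyte lineage stop dividing as they mature, so these genes are a usual place to look for exit from the cell cycle.

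Values are given as FPKM, fragments scaled to transcript length and library size, which the authors normalized to ERCC spike-in RNAs added to RNA from a counted number of cells. A value as deposited is therefore meant as an amount per cell. The typical gene fell on this scale at 96 h, by a median of 1.75 on the log2(FPKM + 1) scale in WT and 1.28 in HMGN1-OE cells against 0 h. Each comparison is for that reason given also after subtracting from each library its median over the tested genes (centred), which shows a gene relative to the typical gene. Duplicate libraries could differ as a whole: the summed FPKM was 680258 and 1268120 in the WT libraries at 0 h and 449750 and 228955 in those at 96 h. Read depth is unknown. In bulk RNA, fewer cells of a type and less RNA per cell cannot be told apart.

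At 96 h the 2 kinases and cyclin D2 were called lower than at 0 h in both genotypes on both scales, with the smallest fall, 1.71-fold, in Ccnd2 of HMGN1-OE cells when centred. Cdkn2d, which encodes p19INK4d, was called higher in both genotypes on both scales, as deposited not under every setting in either. Ccnd3, Cdkn1a and Cdkn1b did not pass the test as deposited, where the typical gene fell, and passed it as higher relative to the library median. Ccne2 fell in both genotypes and Ccne1 in WT, each about as far as the typical gene, and Cdkn2c differed more between duplicate libraries than nearly any other gene.

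A call means a limma p-value below 0.05 after Benjamini-Hochberg adjustment over the 11516 genes. From 0 to 96 h in WT cells, 1 of the 10 genes was called higher and 6 lower as deposited, where 4.31% of all tested genes were called higher and 77.2% lower. For HMGN1-OE cells the counts were 1 higher and 5 lower, where 5.08% and 62.4% of all genes were called. Centred, 4 were called higher and 3 lower in WT (36.5% and 33.8% of all genes), with 5 higher and 3 lower in HMGN1-OE libraries (30.9% and 32.5%). With 10 genes these counts are near the background, and what sets the genes apart from each other is the direction and size of their differences. Their median difference was -1.69 as deposited in WT and -0.82 in HMGN1-OE cells, beside the all-gene medians above.

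**Figure D1:**
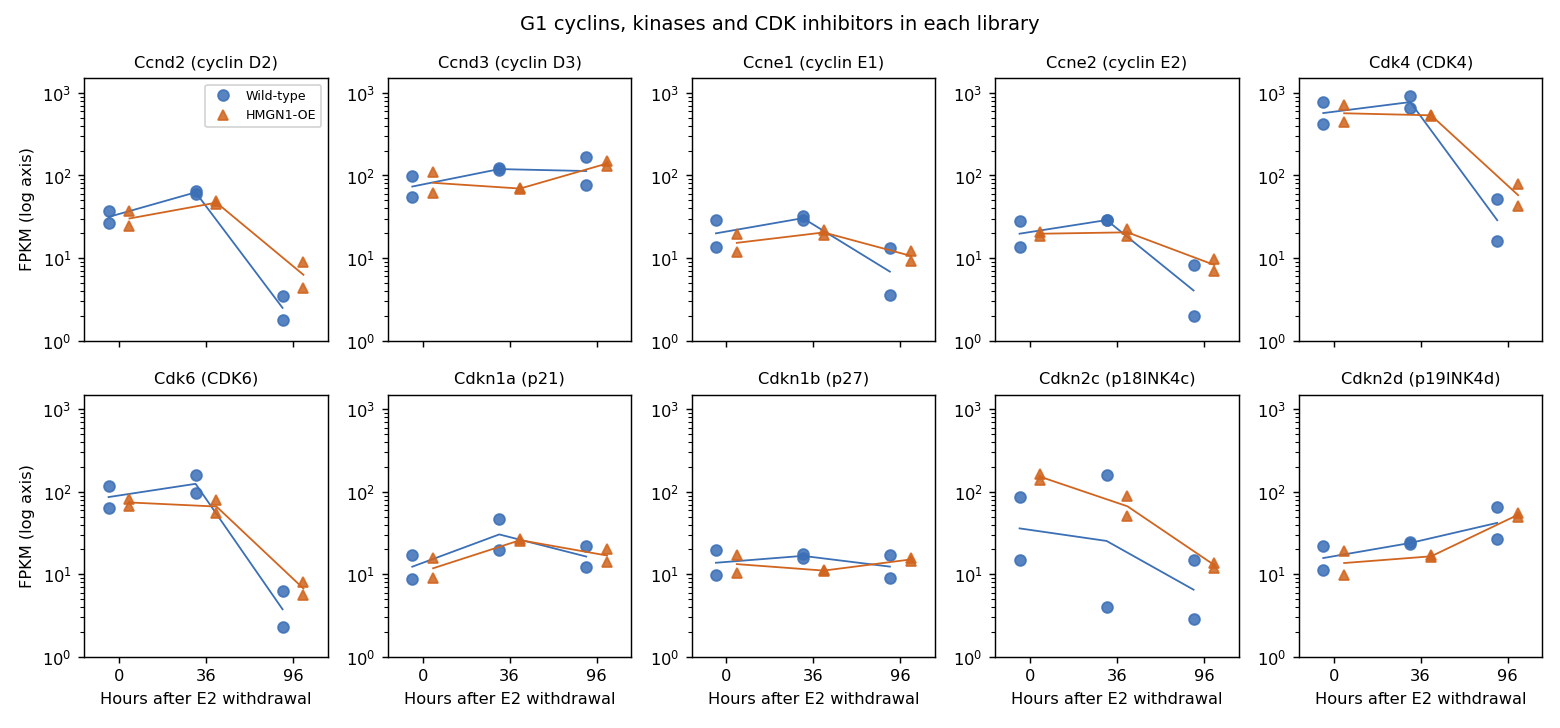
FPKM on a log axis for each of the 10 genes against hours after E2 withdrawal, with 1 point per library (circles, wild-type; triangles, HMGN1-OE) and lines through the geometric mean of the 2 libraries. Cdk4, Cdk6 and Ccnd2 drop at 96 h in both genotypes, Cdkn2d climbs, and the WT libraries of Cdkn2c lie far apart at 0 and 36 h.

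Among the kinases, Cdk4 on chromosome 10 encodes the main partner of the D-type cyclins and stood at 415 and 785 FPKM in the WT libraries at 0 h, 662 and 910 at 36 h, and 51.3 and 16.1 at 96 h. In HMGN1-OE cells it stood at 717 and 449 FPKM, then 533 and 539, then 42.9 and 77.8. All 4 libraries at 96 h lay below the 8 earlier ones. The fall from 0 to 96 h was -4.26 (SE 0.59) on the log2(FPKM + 1) scale in WT, 19.1-fold, with a limma adjusted p of 1.55e-11, and -3.27 (SE 0.59) in HMGN1-OE cells, 9.66-fold, with a limma adjusted p of 4.50e-07. Relative to the library median it was still 5.32-fold lower in WT and 3.89-fold lower in HMGN1-OE cells. Cdk4 held the 98.0 to 98.2 percentile of the tested genes at 0 h and the 87.3 to 93.9 percentile at 96 h.

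Cdk6, on chromosome 5, encodes the second kinase of the D-type cyclins. Its FPKM was 63.1 and 118 in WT at 0 h, 97.0 and 160 at 36 h, and 6.23 and 2.27 at 96 h. In HMGN1-OE cells the values were 81.3 and 67.6, then 78.6 and 55.7, then 5.64 and 8.001. The libraries at 96 h did not overlap those of the earlier times. Cdk6 fell by 4.16 (SE 0.54) on the log2(FPKM + 1) scale in WT and by 3.28 (SE 0.54) in HMGN1-OE cells, with limma adjusted p-values of 2.40e-13 and 1.66e-08, and by 2.32 and 1.97 on the centred scale. The pair moved together: within a library, Cdk4 was 6.58 to 8.83 times Cdk6 at 0 h, 5.68 to 9.69 times at 36 h and 7.07 to 9.73 times at 96 h.

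The start-site windows of Cdk4, Cdk6 and Cdkn2d are shown, picked by the direction of their differences. They run from 250 bases before to 50 after the annotated start, credited to RefSeq (GRCm38.p6). Of the 10 genes, 8 had a window in that table, 11 windows in all; Ccnd2 and Ccne2 had none. Capitals mark CACGTG, the E-box core bound by Myc and related factors. The other motifs searched on both strands were the E2F core, taken as TTCCCGC or its variants TTGGCGC and then TTCGCGC, and the CHR element, taken as TTTGAA. None of these spellings contains another on either strand, and the E-box core is its own reverse complement.
Cdk4, chr10:127063285-127063584, plus strand: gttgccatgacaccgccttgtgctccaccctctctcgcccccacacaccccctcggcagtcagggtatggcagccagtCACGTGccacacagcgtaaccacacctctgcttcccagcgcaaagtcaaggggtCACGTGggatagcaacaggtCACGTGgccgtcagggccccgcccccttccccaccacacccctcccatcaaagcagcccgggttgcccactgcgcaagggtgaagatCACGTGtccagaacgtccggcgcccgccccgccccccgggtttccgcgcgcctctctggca
Cdk6, chr5:3343643-3343942, plus strand: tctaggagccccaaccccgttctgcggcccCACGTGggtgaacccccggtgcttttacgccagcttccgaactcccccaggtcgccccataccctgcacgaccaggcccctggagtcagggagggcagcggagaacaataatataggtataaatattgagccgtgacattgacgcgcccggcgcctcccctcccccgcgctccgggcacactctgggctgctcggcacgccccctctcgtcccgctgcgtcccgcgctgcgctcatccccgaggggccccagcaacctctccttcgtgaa
Cdkn2d, chr9:21291160-21291459, minus strand: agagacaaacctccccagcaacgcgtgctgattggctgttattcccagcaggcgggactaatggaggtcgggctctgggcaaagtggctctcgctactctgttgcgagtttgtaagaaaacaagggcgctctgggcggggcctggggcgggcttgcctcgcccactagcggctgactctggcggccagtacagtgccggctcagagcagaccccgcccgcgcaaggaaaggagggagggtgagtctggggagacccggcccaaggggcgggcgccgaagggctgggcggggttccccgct

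The Cdk4 window held 4 E-boxes, at -172, -118, -98 and -11 from the start, where 7.15% of all 32851 windows of this length held at least 1 and 8 windows held 4 or more. The Cdk6 window held 1, at -220. Of the other windows, 1 of Cdkn2c held an E2F core at -25 (8.07% of all windows hold one) and its other window an E-box at 35. No CHR element, which 17.9% of all windows hold, was found in the 11 windows, and the windows of Cdkn2d, Cdkn1a, Cdkn1b, Ccne1 and Ccnd3 held no match to any of the motifs. These are matches of letters, not measured sites, and a link to the direction of the differences was not tested.

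The D-type cyclins parted from each other. Ccnd2, on chromosome 6, read 26.9 and 36.7 FPKM in WT at 0 h, 59.9 and 65.2 at 36 h, and 3.44 and 1.80 at 96 h. In HMGN1-OE cells it read 37.5 and 24.2, then 48.4 and 45.4, then 4.37 and 8.98. Its libraries at 36 h were all above those at 0 h, and those at 96 h all below. Ccnd2 fell by 3.20 (SE 0.51) from 0 to 96 h in WT, 9.21-fold, and by 2.09 (SE 0.51), 4.26-fold, in HMGN1-OE cells on the log2(FPKM + 1) scale, with limma adjusted p-values of 4.42e-09 and 0.000210. On the centred scale it fell by 1.36 and 0.78, with limma adjusted p-values of 0.000337 and 0.00902. Ccnd2, Cdk4 and Cdk6 passed the test from 0 to 96 h under all 22 alternative settings in both genotypes.

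Ccnd3, on chromosome 17, encodes cyclin D3 and read 55.1 and 98.0 FPKM in WT at 0 h, 122 and 117 at 36 h, and 166 and 77.2 at 96 h. In HMGN1-OE cells it read 109 and 60.9, then 69.3 and 69.6, then 130 and 151. As deposited the differences from 0 to 96 h were 0.62 (SE 0.57) in WT and 0.77 (SE 0.57) in HMGN1-OE cells, with limma adjusted p-values of 0.303 and 0.213. Centred, they were 2.46 (SE 0.14) and 2.08 (SE 0.14), with limma adjusted p-values of 3.85e-06 and 1.12e-05, and no library at 96 h overlapped one at 0 h. Ccnd3 went from the 82.1 to 86.5 percentile at 0 h to the 96.8 to 97.5 percentile at 96 h. Within a library Ccnd3 was 2.04 to 2.91 times Ccnd2 at 0 h, 1.43 to 2.04 times at 36 h and 16.8 to 48.3 times at 96 h. Ccnd1, the third D-type cyclin, read at most 1.17 FPKM in any library and was not tested.

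The E-type cyclins had smaller differences at 96 h than the kinases. Ccne1, on chromosome 7, was 13.7 and 29.0 FPKM in WT at 0 h, 28.8 and 32.1 at 36 h, and 13.2 and 3.54 at 96 h, and in HMGN1-OE cells 19.8 and 11.8, then 19.05 and 21.9, then 9.25 and 12.2. Its difference from 0 to 96 h was -1.38 (SE 0.50, limma adjusted p = 0.00856) in WT and -0.49 (SE 0.50, limma adjusted p = 0.379) in HMGN1-OE cells. Centred, it was 0.46 in WT, not called, and 0.83 in HMGN1-OE cells, called higher with a limma adjusted p of 0.00611. The WT fall was not called with no filter on low values, without moderation or with only the groups compared (adjusted p from 0.0786 without moderation to 0.170). It was also not called without WT library 2 at 0 h (-0.87, limma adjusted p = 0.158) or without WT library 2 at 96 h (-0.56, limma adjusted p = 0.349). Ccne2, on chromosome 4, ranged from 13.7 to 28.4 FPKM over the 4 libraries at 0 h, 18.7 to 28.9 at 36 h and 2.01 to 9.71 at 96 h. It fell by 1.99 in WT and 1.16 in HMGN1-OE cells as deposited (SE 0.50, limma adjusted p = 0.000156 and 0.0322), and centred it differed by -0.14 and 0.15, neither called. In HMGN1-OE cells Ccne2 was called in 11 of 22 alternative settings, and not without moderation (linear model adjusted p = 0.117). Its HMGN1-OE call was lost on leaving out any 1 of the 6 HMGN1-OE libraries, with differences of -0.95 to -1.38 and limma adjusted p-values of 0.0570 to 0.227.

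**Figure D2:**
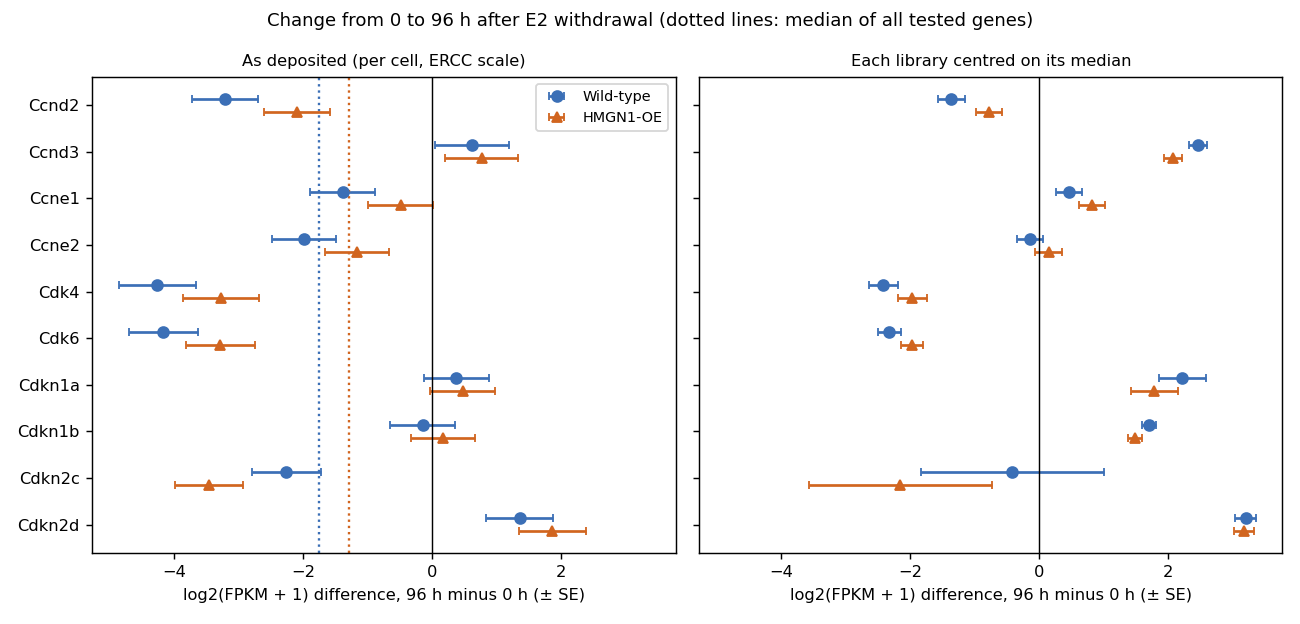
Difference in log2(FPKM + 1) from 0 to 96 h for each gene in wild-type (circles) and HMGN1-OE cells (triangles), with bars of 1 SE from limma, as deposited on the left and centred on the right. Dotted lines mark the median of all tested genes, and Cdk4 and Cdk6 lie to the left of them while Ccnd3, Cdkn1a, Cdkn1b and Cdkn2d lie to the right.

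Among the INK4 genes, Cdkn2d on chromosome 9 was the 1 gene of the 10 called higher at 96 h as deposited. It read 11.1 and 22.2 FPKM in WT at 0 h, 24.6 and 23.3 at 36 h, and 66.1 and 26.6 at 96 h. In HMGN1-OE cells it read 18.9 and 9.90, then 17.0 and 16.1, then 49.97 and 55.5. The libraries at 96 h lay above all others. Cdkn2d rose by 1.36 (SE 0.52) on the log2(FPKM + 1) scale in WT, 2.57-fold, and by 1.86 (SE 0.52), 3.64-fold, in HMGN1-OE cells, with limma adjusted p-values of 0.0126 and 0.00110. Centred, the rise was 9.22-fold in WT and 9.05-fold in HMGN1-OE cells. The WT call as deposited was lost with no filter on low values, without moderation and with only the groups compared (adjusted p from 0.0537 without moderation to 0.201). It was lost as well without WT library 1 at 0 h (0.89, limma adjusted p = 0.141) or WT library 1 at 96 h (0.72, limma adjusted p = 0.200), and the HMGN1-OE call without HMGN1-OE library 2 at 0 h (1.43, limma adjusted p = 0.0513).

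With values in view, Cdkn2d was set against its target Cdk4. Within a library Cdk4 was 35.3 to 45.4 times Cdkn2d at 0 h and 26.9 to 39.1 times at 36 h, and 0.60 to 1.40 times at 96 h. Cdk4 was likewise 6.58 to 8.01 times Ccnd3 at 0 h, and Ccnd3 was 1.94 to 4.81 times Cdk4 at 96 h. A loess normalization can scale high and low values of a library differently, and its part in these ratios was not tested.

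**Figure D3:**
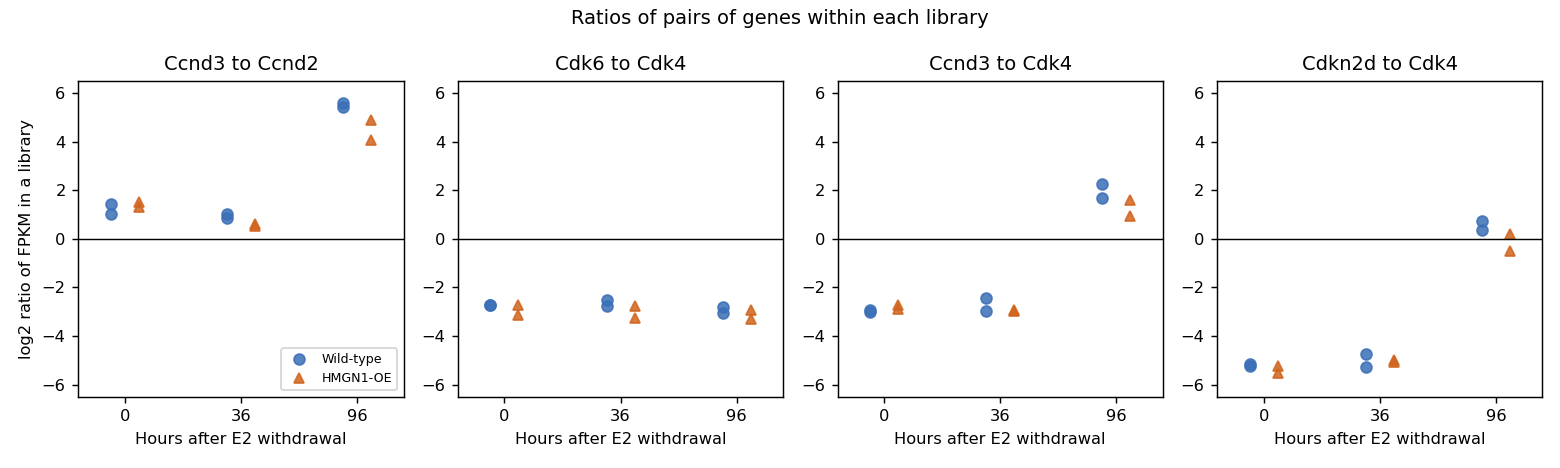
The log2 ratio of FPKM within each library for 4 pairs of genes against hours after E2 withdrawal (circles, wild-type; triangles, HMGN1-OE). The ratio of Cdk6 to Cdk4 stays between -3.28 and -2.50 in all 12 libraries, while the other 3 ratios are higher at 96 h than at 0 and 36 h in each library.

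Cdkn2c on chromosome 4, which encodes p18INK4c, varied between duplicate libraries. In WT cells it read 86.4 and 15.0 FPKM at 0 h, 4.04 and 159 at 36 h, and 14.9 and 2.84 at 96 h. In HMGN1-OE cells it read 141 and 163, then 87.9 and 50.5, then 13.9 and 11.95. Its SD within groups, 1.73 on the log2(FPKM + 1) scale, was at the 99.4 percentile of the tested genes and 3.24 times the SD of 0.53 that limma took from the trend over expression. Its limma standard errors as deposited are therefore smaller than its own libraries show. It was called lower at 96 h than at 0 h in both genotypes (-2.26 in WT, -3.46 in HMGN1-OE cells), and neither was called when centred (-0.41, SE 1.42, and -2.15, SE 1.42) or with a linear model without moderation. The WT call was lost as well without WT library 1 at 0 h (-1.03, limma adjusted p = 0.183) or WT library 2 at 96 h (-1.24, limma adjusted p = 0.0634).

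**Figure D4:**
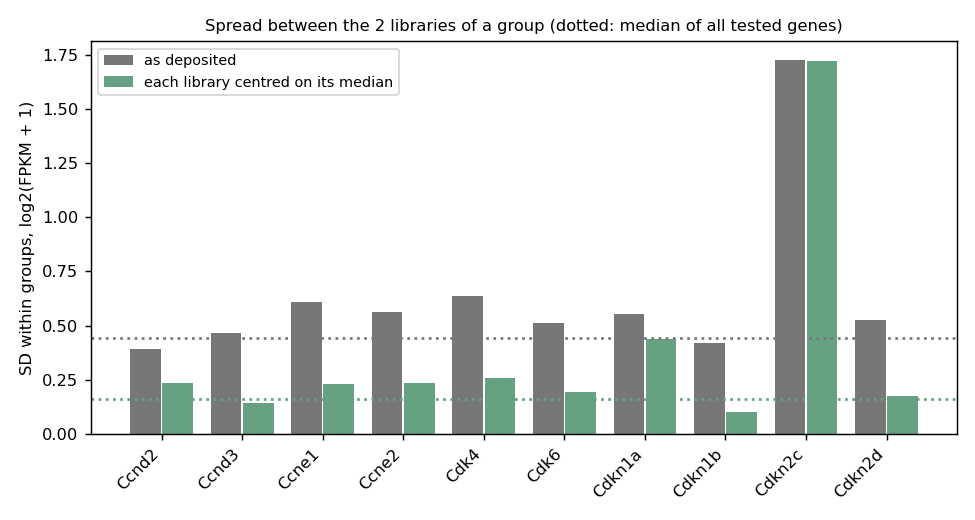
SD within groups of log2(FPKM + 1) for each gene, as deposited and centred, with dotted lines at the medians of all tested genes (0.44 and 0.16). Cdkn2c stands above the other 9 genes on both scales.

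The Cip/Kip genes were called from 0 to 96 h when centred and not as deposited. Cdkn1a on chromosome 17, which encodes p21, read 8.83 and 17.3 FPKM in WT at 0 h, 46.6 and 19.8 at 36 h, and 22.2 and 12.1 at 96 h. In HMGN1-OE cells it read 15.6 and 8.98, then 25.0 and 26.8, then 14.2 and 20.0. All 4 libraries at 36 h lay above those at 0 h, with differences of 1.23 (SE 0.51) in WT and 1.07 (SE 0.51) in HMGN1-OE cells that did not pass the test (limma adjusted p = 0.589 and 0.818). Centred and without WT library 2 at 36 h, Cdkn1a was called higher at 36 h in WT (1.49, limma adjusted p = 0.00373), where 0.764% of all genes were called higher, and without WT library 1 instead the difference was 0.017. It was likewise called in HMGN1-OE cells without WT library 2 or 1 at 36 h (1.03, limma adjusted p = 0.00419 and 0.00426), where 2.41% and 2.33% of all genes were called higher. Without WT library 1 at 36 h it was also called higher in HMGN1-OE than in WT cells at 36 h (1.09, limma adjusted p = 0.0401; 0.0868% of all genes), which leaves WT with 1 library at that time, and without WT library 2 instead the difference was -0.38. From 0 to 96 h the differences as deposited were 0.38 and 0.47, not called, and the centred ones 2.23 and 1.79 (SE 0.37), called higher with limma adjusted p-values of 0.000571 and 0.00246. Cdkn1b on chromosome 6, which encodes p27, lay between 9.72 and 19.5 FPKM over the 4 libraries at 0 h, 11.0 and 17.5 at 36 h, and 9.004 and 17.0 at 96 h. As deposited it differed by -0.14 (95% interval -1.12 to 0.83) in WT and 0.17 (-0.80 to 1.15) in HMGN1-OE cells, and centred it rose by 1.70 and 1.48 (SE 0.11), with limma adjusted p-values of 4.94e-06 and 1.49e-05.

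By level, Cdk4 stood first in every library at 0 and 36 h, at 415 FPKM or more, and Ccnd3 first in every library at 96 h, at 77.2 or more. At 0 h Cdk6 (63.1 to 118 FPKM) and Ccnd3 (55.1 to 109) overlapped, and Cdkn2c (15.0 to 163) was above both in all but WT library 2. Ccnd2 overlapped with the E-type cyclins, and Cdkn2d, Cdkn1a and Cdkn1b were each at or under 22.2. At 96 h Cdkn2d (26.6 to 66.1 FPKM) and Cdk4 (16.1 to 77.8) overlapped, and Ccnd2 (1.80 to 8.98) and Cdk6 (2.27 to 8.001) were lowest with Ccne2.

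The first interval gave no calls. From 0 to 36 h limma called none of the 10 genes in WT, against 0.617% of all tested genes as deposited, and none in HMGN1-OE cells, against 1.8%. An unadjusted p under 0.05 was found for 1 and 2 of the 10, beside 3.28% and 5.02% of all genes. The linear model without moderation and the centred values also gave 0 calls, where 0.00868% and 0.13% of all genes were called when centred, and 1 and 3 of the 10 had a centred unadjusted p under 0.05, beside 3.06% and 14.8% of all genes. From 36 to 96 h limma called 0 higher and 6 lower in WT (3.15% and 86.3% of all genes) and 1 higher with 5 lower in HMGN1-OE libraries (4.02% and 64.9%). Centred, the calls were 4 higher and 3 lower in WT (38.2% and 33.7%) and 3 higher with 3 lower in HMGN1-OE libraries (28.6% and 32.3%). Cdk4 fell by 4.70 and 3.19 over this interval, Cdk6 by 4.69 and 3.12, and Ccnd2 by 4.17 and 2.71 on the log2(FPKM + 1) scale, in WT and HMGN1-OE cells. Cdkn2c was among the WT calls (-1.86) although its libraries at 36 and 96 h overlapped, and without WT library 2 at 36 h the difference was 0.63.

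Whether HMGN1 changed these genes was tested at each time. Mouse Hmgn1 itself read 85.7 and 141 FPKM in WT and 201 and 97.6 in HMGN1-OE libraries at 0 h, and the genotypes overlapped at all 3 times as deposited. When centred, both HMGN1-OE libraries lay above both WT libraries at each time, with differences of 0.48, 0.56 and 0.50 (SE 0.26) that were not called (limma adjusted p = 0.958, 0.99999 and 0.343). The transgene is the human gene, so this value does not check the labels. At 0 h 1 of the 10 genes, Cdkn2c, was called higher in HMGN1-OE cells, against 1.36% of all genes called. At 36 h and at 96 h limma called 0, against 1.26% and 0.669% of all genes, and the linear model without moderation called 0. An unadjusted p under 0.05 was found for 1 gene at each of the 3 times, beside 3.97%, 5.15% and 2.73% of all genes. Centred, 0 were called at any time, where 0.104%, 0.0521% and 0.0608% of all genes were called. The centred unadjusted p was under 0.05 for 0, 0 and 2 of the 10, beside 5.64%, 3.85% and 17.9% of all genes, so 2 of 10 at 96 h is near the background. The interaction of genotype with time gave 0 calls for 36 h and for 96 h against 0 h, against 0.504% and 0.677% of all genes, and 0 by the linear model without moderation or when centred (0.0174% and 0.0347% of all genes called). No unadjusted p was under 0.05 as deposited, beside 1.91% and 2.9% of all genes, and 1 and 0 were when centred, beside 1.89% and 10.6%.

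The Cdkn2c difference at 0 h was 2.03 (SE 0.53) on the log2(FPKM + 1) scale, 4.08-fold, with a limma adjusted p of 0.0118, and the libraries did not overlap (141 and 163 against 86.4 and 15.0 FPKM). It was called in 11 of 22 alternative settings. Without WT library 2 at 0 h, the low one, it was 0.80 with a limma adjusted p of 0.901, without HMGN1-OE library 1 or 2 at 0 h it was 2.14 or 1.92 with a limma adjusted p of 0.159 or 0.231, and centred it was 2.16 (95% interval -1.05 to 5.38) with a limma adjusted p of 0.999. At 36 h it read 1.25 higher, not called, and without WT library 2 at 36 h it was 3.75 with a limma adjusted p of 1.32e-05, while without WT library 1 at 36 h it was -1.24 with a limma adjusted p of 0.538.

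The widest genotype difference of the other genes was in Ccnd2 at 96 h, where both HMGN1-OE libraries (4.37 and 8.98 FPKM) lay above both WT libraries (3.44 and 1.80). It was 1.05 (95% interval 0.05 to 2.06, limma adjusted p = 0.859) as deposited and 0.65 (95% interval 0.19 to 1.12, limma adjusted p = 0.218) centred, beside an all-gene median of 0.36 as deposited. For Cdk4 at 96 h the difference was 0.98 (95% interval -0.19 to 2.14) as deposited and 0.58 (0.06 to 1.09) centred. Centred and without WT library 1 at 96 h, Cdk4 and Ccne2 were called higher in HMGN1-OE cells (0.90 and 0.73, limma adjusted p = 0.0405 and 0.0438), which leaves WT with 1 library at that time and had 7.76% of all genes called higher. Without WT library 2 at 96 h instead, the differences were 0.25 and 0.099, not called. For Cdkn1b and Cdkn2d at 96 h the centred intervals ran from -0.38 to 0.11 and from -0.45 to 0.28. The 2 libraries of a group leave differences of this size undecided.

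The wider G1/S pathway was read from a list of 47 further genes, of which 43 were tested. From 0 to 96 h limma called 1 gene of it higher with 35 lower in WT, 1 higher with 26 lower in the HMGN1-OE libraries as deposited, and 15 higher and 18 lower, and 14 higher and 12 lower, when centred. Of the 11516 genes, 4.31% and 5.08% were called higher and 77.2% and 62.4% lower as deposited, and 36.5% and 30.9% higher and 33.8% and 32.5% lower when centred. The median of the list, -1.87 and -1.35, lay near that of all genes, and no gene of it was called between genotypes or in an interaction. E2f2, an activating E2F, was the call that was higher: it read 0.59 to 1.18 FPKM at 0 h and 7.11 to 20.8 at 96 h, and rose by 2.95 (SE 0.40) in WT and 3.11 (SE 0.40) in HMGN1-OE cells (limma adjusted p = 3.21e-12 and 2.44e-13). Rb1, which encodes the retinoblastoma protein, differed by -0.28 and 0.24, not called, and rose by 1.57 and 1.55 when centred. Cdkn2b rose only when centred, by 2.20 and 1.54, from values of 0.20 to 0.83 FPKM at 0 h to 0.35 to 1.10 at 96 h, near the floor of the values.

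The largest centred falls of the list in WT were in Cebpa and Gfi1, myeloid transcription factors, and Skp1a, a subunit of SCF ubiquitin ligases, by 1.43, 1.40 and 1.36. In HMGN1-OE cells they were in Cdk7, the CDK-activating kinase, E2f5 and E2f4, E2Fs that act mainly in repression, by 1.14, 1.09 and 1.01. When centred, Cdk7, E2f4, E2f5, Skp1a and Cebpa were called lower in both genotypes, and Gfi1 was not in HMGN1-OE cells (-0.47, limma adjusted p = 0.152).

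Exit from the cell cycle was not read from these genes alone. Of 10 proliferation genes, the fit as deposited called 8 lower in WT and 4 lower in HMGN1-OE libraries at 96 h against 0 h, and none higher, beside 77.2% and 62.4% of all genes called lower. Centred, the calls were 2 higher with 3 lower in WT, 4 higher with 1 lower in HMGN1-OE libraries, and the list had medians of 0.06 and 0.27, beside 36.5% and 30.9% of all genes called higher and 33.8% and 32.5% lower. Mki67, the gene of the proliferation antigen Ki-67, read 73.1 to 158 FPKM at 0 h and 36.9 to 119 at 96 h, and rose by 1.16 and 1.32 when centred, whereas Mcm2, a replication helicase subunit, fell by 1.005 and 0.64.

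The make-up of the libraries moved with the times as well. Summed over 11 measured granulocyte and monocyte markers, FPKM was 1193 to 2998 at 0 h, 260.5 to 2148 at 36 h and 67038 to 173063 at 96 h, and over 8 progenitor markers 5676 to 16392, 12618 to 22177 and 124 to 2336. Eosinophil markers (4 genes) summed to 3.54 to 24.9 at 0 h and 214 to 2160 at 96 h, with Prg2 at up to 1970. Between genotypes at 96 h, the eosinophil granule genes Prg2 and Epx were called lower in HMGN1-OE cells as deposited (-2.19 and -2.14, limma adjusted p = 0.00848 and 0.000449) and not when centred. Of the 8 progenitor markers, the granule protease and peroxidase genes Elane, Ctsg and Mpo were called higher in HMGN1-OE cells at 96 h as deposited (2.50, 2.48 and 2.39), with a list median of 1.55, or 1.15 centred with no call. Of all genes, 0.669% were called between genotypes at 96 h as deposited, in either direction. As deposited, all 10 genes of the set read higher in HMGN1-OE cells at 96 h too, as the typical gene did, without a call. At 0 h Elane and Mpo were called lower in HMGN1-OE cells as deposited (-2.74 and -2.37), and at 36 h 4 of 11 granulocyte and monocyte markers, Camp, Ngp, S100a9 and Mmp8, were, with no call when centred. The shares of all genes called as deposited, in either direction, were 1.36% at 0 h and 1.26% at 36 h. S100a9 was listed at 0.051 FPKM in WT library 1 at 96 h and at 26546 in WT library 2, which enters the sums above. Mast cell and basophil markers (4 genes) summed to 378 to 731 at 0 h, 769 to 2601 at 36 h and 98.1 to 419 at 96 h. As deposited, the B cell genes Cd79b and Ebf1 were called lower at 96 h than at 0 h in both genotypes. In WT 77.2% and in HMGN1-OE cells 62.4% of all genes were called lower. Ebf1 read 18.9 to 28.7 FPKM at 0 h and 0.043 to 0.216 at 96 h. Cd79a passed the filter only through libraries at 0 h and is given without a call. Centred, Ebf1 read 3.95 to 4.44 at 0 h and 0.95 to 1.88 at 96 h. The centred values of Cd79b (1.96 to 3.88 and 1.79 to 2.34) and Cd79a (0.16 to 1.29 and 1.12 to 2.04) overlapped between these times. T cell markers (5 genes) summed to 0.60 to 0.80 at 0 h and 3.69 to 10.4 at 96 h, with Cd3e, Cd4 and Cd8a at the floor. The sum at 96 h was mostly Cd3d, which read 0.162 to 0.322 FPKM at 0 h and 3.14 to 9.11 at 96 h. It passed the filter only through the libraries at 96 h, so its differences of 2.41 and 1.92 are given without a call. Megakaryocyte markers (4 genes) summed to 11.4 to 37.0 at 0 h, 21.6 to 38.2 at 36 h and 1.94 to 7.64 at 96 h. All these sums are as deposited, where the typical gene fell at 96 h. Centred, the median differences from 0 to 96 h in WT and HMGN1-OE cells were 1.15 and 0.59 for the megakaryocyte list. They were 1.59 and 0.69 for the mast cell and basophil list, 1.80 and 1.85 for macrophage markers, and -3.31 and -1.14 for progenitor markers. Macrophage markers (4 genes) summed to 48.1 to 137 at 0 h and 34.1 to 49.2 at 96 h, and erythroid markers (5 genes) to 0.90 to 6.31 over all libraries. Their part in the values of the 10 genes was not tested.

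In the GENCODE vM21 annotation, Ccnd3 overlaps Bysl, Ccne2 overlaps Ints8 and Cdk4 overlaps Tspan31, each on the opposite strand, and Ccnd2, Cdk6 and Cdkn1a overlap noncoding genes. The kit does not keep strand, so reads of such partners cannot be told apart. Bysl read 14.6 to 25.1 FPKM at 0 h and 1.25 to 4.24 at 96 h, Ints8 24.6 to 49.8 and 2.66 to 8.60, and Tspan31 56.7 to 128 and 9.33 to 22.9, so all 3 partners were lower at 96 h. Ccne1, Cdkn1b, Cdkn2c and Cdkn2d had no overlapping gene there.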

How the data were processed

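Poly(A) RNA from a counted number of mouse progenitors was sequenced by the authors in 12 libraries with an unstranded kit. The deposited values are FPKM, 1 value per gene and library, for 23309 genes and 92 ERCC RNAs. The study's methods give Bowtie, RPKM and a loess normalization with the ERCC RNAs as the subset, while the submitters' processing notes name HISAT, Cufflinks 2.0.0 and the mm9 build. Depth is unknown, so no counting error is given, and genes without signal sit near a floor rather than at 0. The columns state genotype, time and a digit of 0 or 1, which is not the culture number of 1 or 2 in the labels, and libraries 1 and 2 of a group follow the order of the columns.

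The deposited FPKM were put on the log2(FPKM + 1) scale, which understates the change of low values. The 11516 genes that reached 1 FPKM in 2 or more libraries were fitted with limma 3.58.1 (R 4.3.3; eBayes with trend, a mean for each of 6 groups, two-sided, Benjamini-Hochberg adjustment). In 11 comparisons genes were called at an adjusted p under 0.05. As deposited, the variance of a gene came from limma's trend alone, since the prior degrees of freedom were infinite. The smallest p of an exact permutation test on 4 libraries in 2 groups is 0.333. Centring subtracts each library's median over the tested genes. The script was tested on simulated data.

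The genes and lists were chosen with earlier results of these data known. The text names all 10 genes, Hmgn1 and, from the G1/S list, genes called between genotypes (there were none) and the 3 largest called rises and falls from 0 to 96 h on the centred scale in each genotype. Other genes, and the ratios of Cdkn2d and Ccnd3 to Cdk4, were named after their values were seen. Gene models are from GENCODE vM21 (GRCm38), start-site windows from RefSeq (GRCm38.p6), both matched by symbol. These are not the mm9 of the notes, so no coordinates of the counted features are given. A marker is not reported here. Alternatives were a pseudocount of 0.1, no filter, a mean of at least 5 FPKM, centring, quantile normalization, limma without trend, no moderation, only the groups compared and each library left out. The robust option of limma, centring without moderation centring with a library left out and a block on the digit of the column names were added after the values were seen. Scripts ran in Python 3.11.15 with pandas 2.3.3, numpy 2.4.6 and matplotlib 3.10.9.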

Additional observations from a re-analysis of the deposited data

Results flagged for a closer look

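Ccnd2 went opposite ways between genotypes at 36 and 96 h as deposited. At 36 h both HMGN1-OE libraries lay below both WT libraries, a difference of -0.41 on the log2(FPKM + 1) scale, and at 96 h both lay above, a difference of 1.05. The difference between these times was not tested, neither value was called by limma (adjusted p = 0.506 and 0.859), and centred on the library medians they were 0.17 and 0.65. The typical gene went the same ways, with all-gene medians of -0.54 at 36 h and 0.36 at 96 h.

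Ccnd3 went opposite ways from 0 to 36 h in the genotypes when centred. It was 0.22 higher at 36 h in WT, in both libraries, and -0.26 in HMGN1-OE cells, where both libraries were lower. The interaction was -0.48 (SE 0.20) and did not pass limma's test (adjusted p = 0.9999).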

How the results depend on the processing

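The columns end in a digit of 0 or 1 that no source ties to the culture numbers 1 and 2. The labels give these numbers at each time, so cultures may recur, and the comparisons of times treated all libraries as independent. Over the tested genes, the differences between libraries of unlike digit correlated from -0.37 to 0.18 between groups (15 pairs of groups, 3 over 0.1). The lowest were between 0 and 36 h, -0.37 in WT and -0.29 in HMGN1-OE cells, and the digit was not taken as a pairing. A replicate block on it left the differences as they were and the genes called between genotypes at 0 h at 1 (0 when centred), and moved those called from 0 to 96 h in HMGN1-OE cells from 6 to 5, without Ccne2. It changed no other call of the 10 genes. The number of the 10 genes called between genotypes at 0 h was 1 as deposited and 0 with no filter on low values, centring, quantile normalization, limma without trend, no moderation, only the groups compared, limma's robust option and centring without moderation. The number called in WT from 0 to 96 h was 7, beside 81.5% of all genes, 4 with no filter (38.3% of 23309 genes) or without moderation (75.9%), 5 with only the groups compared (52.8%) and 6 with the robust option (81.4%). With each library left out in turn, both the number of the 10 genes called and the share of all genes called changed. That number is therefore not given as a result about the 10 genes. Where leaving a library out left a group with 1 library, that library was assumed to vary like the others.

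Centring and quantile normalization turned the direction of these differences that were called on either scale, given in that order: in WT from 36 to 96 h Ccnd3 2.25 and 2.47, Ccne1 0.36 and 0.40, Cdkn1a 1.47 and 1.60, Cdkn1b 1.92 and 1.98, and Cdkn2c 0.46 and 0.37. In WT from 0 to 96 h they were Ccne1 0.46 and 0.49, and Cdkn1b 1.70 and 1.79. In HMGN1-OE cells they were Ccne1 0.83 and 0.88 and Ccne2 0.15 and 0.18 from 0 to 96 h, Ccne2 0.13 and 0.17 from 36 to 96 h, and, in quantile normalization, Ccne1 0.53 from 36 to 96 h. Centring without moderation gave the centred values. Of the differences called on neither scale, 28 more turned with centring (16 between genotypes, 8 interactions and 4 between times) and 26 with quantile normalization. Both remove the fall of the typical gene by construction.

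Calls as deposited that 1 library decided, beyond those given above, were Cdkn2c in WT from 36 to 96 h (over all libraries left out from -4.35, without WT library 1 at 36 h, to 0.63 without WT library 2 at 36 h, and -0.84 without WT library 2 at 96 h) and from 0 to 36 h (-2.89, limma adjusted p = 0.00320, without WT library 2 at 36 h), and its interaction at 36 h (-3.27, limma adjusted p = 0.0321, without WT library 1 at 36 h). From 36 to 96 h they were also Ccne2 in HMGN1-OE cells (-1.004 to -1.43, lost without any library compared), Cdkn2d in WT (1.43, gained without WT library 2 at 96 h) and in HMGN1-OE cells (1.58, lost without HMGN1-OE library 2 at 36 h), Cdkn1a in WT (-1.45 and -1.27, gained without WT library 2 at 36 h or WT library 1 at 96 h) and Ccnd3 in HMGN1-OE cells (0.999, gained without either WT library at 96 h). Of the 2420 differences under the 22 alternative settings (the block and centring with a library left out not counted), 2139 kept their direction and side of the threshold, 147 turned without being called, 32 turned and were called on either side, and 102 changed the call alone.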

Other observations

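Cdkn2a, which encodes p16INK4a and p19ARF and lies in the G1/S list, also differed between duplicate libraries and was looked at after its values were seen. In WT cells it read 1.04 and 41.9 FPKM at 0 h, 82.0 and 2.84 at 36 h, and 6.38 and 13.9 at 96 h, where Cdkn2c read 86.4 and 15.0, 4.04 and 159, and 14.9 and 2.84 in the same libraries. The library with more Cdkn2a was thus the one with less Cdkn2c at each of the 3 times in WT. In HMGN1-OE cells Cdkn2a read 11.4 and 2.25, then 2.93 and 14.8, then 1.74 and 11.2 FPKM, and again the library with more Cdkn2a had less Cdkn2c at each time (141 and 163, 87.9 and 50.5, 13.9 and 11.95 FPKM).

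Cdk2, the partner of the E-type cyclins, was called higher at 96 h relative to the library median, and its difference from the other kinases was not tested. It read 42.4 to 78.7 FPKM at 0 h and 15.4 to 44.0 at 96 h, and rose by 0.72 in WT and 0.80 in HMGN1-OE cells when centred (limma adjusted p = 0.00112 and 0.000764), beside falls of Cdk4 by 2.41 and 1.96. As deposited its differences were -1.12 and -0.51, not called. Ccna1, Cdkn1c and Foxo1 of the G1/S list read at most 0.33 FPKM in any library and were not tested.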
